A study of Homo sapiens with 11 samples.

Results

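The RNA-binding protein gene LIN28B, the chromatin protein gene HMGA2 and 6 further genes, grouped under the heading oncofetal, were followed through long-term culture of human cardiomyocytes. Oncofetal genes are used in embryonic tissue, are low in most adult tissue and return in tumours. The 8 genes, of 19990 in the count table, were LIN28B, HMGA2, IGF2BP1, IGF2BP2, IGF2BP3, IGDCC3, ARID3A and NAP1L1. The heading does not describe each of the 8. Adult tissue commonly keeps IGF2BP2, and NAP1L1 had the highest level of the 8 and kept 63.7% of its Day 30 mean at Day 113. They are known or proposed targets of the let-7 microRNAs and were picked for their steady fall from day to day, as seen in these same counts. Their falls are therefore described here, and the test calls given for them below are not read as evidence.

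The cells were of WTC11, a widely used line of human induced pluripotent stem cells, at passage 63. They were turned into cardiomyocytes with CHIR99021, which activates Wnt signalling, followed by IWP2, which blocks Wnt secretion. Wells were kept in RPMI1640 with B27 and insulin and lysed on Day 30 (4 wells), Day 60 (3 wells) or Day 113 (4 wells), and poly(A) RNA was sequenced. No well was treated otherwise, and the groups differ by day alone. All wells belong to 1 differentiation of 1 line, so the spread between wells covers neither another differentiation nor another line, and the day of culture cannot be told apart from the collection.

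LIN28 proteins bind the precursors of let-7 and block their maturation. Mature let-7 in turn represses mRNAs that carry its target site in the 3′ UTR, and LIN28B, HMGA2 and the IGF2BP genes are textbook targets, so LIN28 and let-7 form a switch between an embryonic and a later state. IGF2BP1, IGF2BP2 and IGF2BP3 are RNA-binding proteins that stabilise and localise mRNAs and can read the m6A mark. ARID3A is a DNA-binding protein for AT-rich sequence, NAP1L1 is a histone chaperone, and IGDCC3 is a membrane protein of the immunoglobulin superfamily. Mature microRNAs carry no poly(A) tail and were not measured here.

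The shared feature of let-7 family members is the seed, bases 2 to 8 of the mature strand, shown in capitals below for the 9 distinct mature sequences that 12 human genes encode (RefSeq, GRCh38.p14).
let-7a: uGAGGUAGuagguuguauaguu
let-7b: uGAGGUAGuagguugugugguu
let-7c: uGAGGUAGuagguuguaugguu
let-7d: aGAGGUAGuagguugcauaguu
let-7e: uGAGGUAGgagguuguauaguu
let-7f: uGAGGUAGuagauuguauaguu
let-7g: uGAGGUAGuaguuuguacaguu
let-7i: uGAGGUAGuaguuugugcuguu
miR-98: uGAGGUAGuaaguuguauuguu
All 9 have the same seed, GAGGUAG, so they share target sites.

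The strongest site class, the 8mer CTACCTCA, pairs with the seed and has an A opposite base 1. It was searched on the sense strand of the 3′ UTR of each gene's principal transcript (GENCODE release 29, GRCh38), and each of the 8 genes held at least 1. The 13 8mers are shown in capitals, each in a window of 22 bases, because they are the sequence feature that the genes share.
LIN28B, chr6:105078813-105078834, plus strand: cccggttgcaaagtCTACCTCA
LIN28B, chr6:105081422-105081443, plus strand: tttacagcaaaaggCTACCTCA
HMGA2, chr12:65963299-65963320, plus strand: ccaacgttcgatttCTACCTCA
IGF2BP1, chr17:49051062-49051083, plus strand: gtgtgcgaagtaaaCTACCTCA
IGF2BP1, chr17:49053699-49053720, plus strand: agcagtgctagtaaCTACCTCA
IGF2BP1, chr17:49054353-49054374, plus strand: tataaatggattaaCTACCTCA
IGF2BP2, chr3:185644220-185644241, minus strand: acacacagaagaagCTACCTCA
IGF2BP3, chr7:23311795-23311816, minus strand: gcatttttactcaaCTACCTCA
IGDCC3, chr15:65328450-65328471, minus strand: ttggctctcagcacCTACCTCA
IGDCC3, chr15:65328368-65328389, minus strand: gcccgaatgcactcCTACCTCA
IGDCC3, chr15:65328217-65328238, minus strand: gtgaaagaaaatgtCTACCTCA
ARID3A, chr19:974512-974533, plus strand: ctgcctatctctgtCTACCTCA
NAP1L1, chr12:76047221-76047242, minus strand: tactgtttacctaaCTACCTCA
IGF2BP1 and IGDCC3 held 3 each and LIN28B held 2. Of 18915 genes with an annotated 3′ UTR, 3.27% held at least 1 8mer and 8 genes held 3 or more. Among the 5454 UTRs as long as those of the 8 genes (1782 to 11842 bases), 7.39% held at least 1. The genes were proposed as let-7 targets, so the presence of sites is a description of the choice.

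Weaker sites of 7 bases, CTACCTC and TACCTCA outside an 8mer, brought the total to 30 sites. HMGA2 held the most, 7 sites, of which 6 were of 7 bases, within 3003 bases of 3′ UTR. LIN28B and IGF2BP1 held 5 each, IGDCC3 4, ARID3A and NAP1L1 3 each, IGF2BP2 2 and IGF2BP3 1. A match shows only that these letters are in the window.

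Each library held between 24.1 M and 34.5 M counts (M, 1000000), and 18796 to 19533 genes had a count. All 10 cardiomyocyte markers, such as TNNT2 and MYH7, were detected, with summed levels of 30092 to 40667 counts per 1000000 counts (CPM) at Day 30, 37707 to 42754 at Day 60 and 31878 to 40111 at Day 113. Markers of other cells changed with day. The summed level of 12 endoderm and epithelial markers was 1121 to 2327 CPM at Day 30, 480 to 609 at Day 60 and 90.3 to 249 at Day 113, and 11 of the 12 fell between Day 30 and Day 113. KRT19 made up most of this sum at Day 60 and Day 113, with means of 634, 457 and 117 CPM on the 3 days. AFP had means of 500, 5.95 and 1.45 CPM, and EPCAM 59.4, 1.93 and 0.967 CPM. From Day 30 to Day 60, 10 of the 12 fell and 0 rose. The 8 endothelial markers summed to 76.0 to 109 CPM at Day 30, 49.1 to 79.4 at Day 60 and 221 to 846 at Day 113, and all 8 rose between Day 30 and Day 113. The 10 fibroblast and stromal markers summed to 3367 to 7738, 2108 to 3611 and 5521 to 13230 CPM, and 6 rose and 2 fell between Day 30 and Day 113. The 10 cycling cell markers summed to 500 to 636, 780 to 1122 and 274 to 575 CPM, and all 10 fell between Day 60 and Day 113. The 5 smooth muscle markers tested summed to 524 to 765, 657 to 917 and 893 to 1338 CPM. In bulk RNA, fewer cells that express a gene and less of its RNA per cell cannot be told apart, and the part of these shifts in the values below was not tested.

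All 8 genes were lower at Day 60 than at Day 30 and lower again at Day 113, by their means. The size of the whole fall was uneven. IGDCC3 and HMGA2 were left with 2.83% and 2.99% of their Day 30 means at Day 113, LIN28B with 15.3% and ARID3A with 19.7%. IGF2BP1 was left with 39.8%, IGF2BP3 with 55.2%, IGF2BP2 with 58.6% and NAP1L1 with 63.7%.

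**Figure D1:**
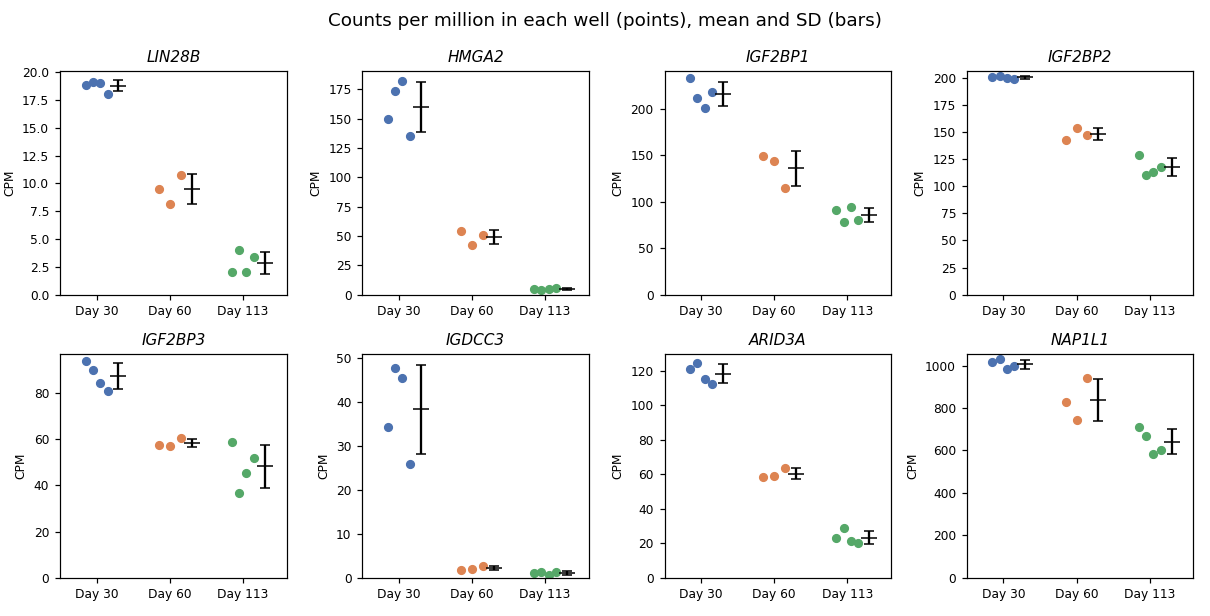
Level of each of the 8 genes in every well (points; vertical axis, CPM from 0; horizontal axis, day), with the mean and SD as a bar beside the points. The wells of Day 113 lie below those of Day 30 in every panel, and only IGF2BP3 has Day 113 wells that reach into the range of Day 60.

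LIN28B (chr6:104936616-105083332, plus strand) stood at 18.8, 19.1, 19.1 and 18.1 CPM in the 4 wells of Day 30. It stood at 9.51, 8.14 and 10.8 CPM at Day 60 and at 2.05, 4.01, 2.00 and 3.41 CPM at Day 113. No 2 days overlapped, the Day 30 wells were nearly equal, and the Day 113 wells split into a lower and a higher pair. Its log2 fold change was -0.98 ± 0.22 (SE) from Day 30 to Day 60 and -1.74 ± 0.23 from Day 60 to Day 113, and 6.60-fold lower over the whole course. The antisense gene LIN28B-AS1 overlaps its exons and stood at means of 0.624, 0.569 and 0.0718 CPM on the 3 days. The deposited counts are not stated to use strand, so reads in the overlap cannot be assigned to either gene. The same limit holds for IGF2BP3, described below. Exons of HMGA2, IGF2BP1, ARID3A and NAP1L1 also overlap genes on the opposite strand, so it holds there too. The count table does not list these overlapping genes under their GENCODE names. It does list HMGA2-AS1, at means of 1.00, 1.10 and 0.378 CPM on the 3 days. Whether HMGA2-AS1 is the gene that overlaps HMGA2 was not checked.

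HMGA2 (chr12:65824131-65966295, plus strand), which bends AT-rich DNA and is a marker of embryonic and tumour tissue, stood at 150, 173, 182 and 136 CPM at Day 30. At Day 60 it stood at 54.4, 42.4 and 50.5 CPM, and at Day 113 at 5.05, 3.56, 5.11 and 5.46 CPM. The days were far apart, and no Day 60 well came near those of Day 30 or Day 113. Its log2 fold change was -1.71 ± 0.14 in the first interval and -3.35 ± 0.15 in the second, and the mean at Day 113 was 33.3-fold below that of Day 30.

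IGDCC3 (chr15:65327127-65378040, minus strand) fell earliest. It stood at 34.3, 47.6, 45.5 and 25.9 CPM at Day 30, at 1.76, 1.99 and 2.65 CPM at Day 60 and at 1.10, 1.31, 0.571 and 1.36 CPM at Day 113. The Day 30 wells had the widest relative spread of the 8 genes, with a SD of 10.1 CPM around a mean of 38.3, and still lay far above every later well. By Day 60 the fitted level was 17.9-fold lower, a log2 fold change of -4.16 ± 0.29, and the second interval added -1.00 ± 0.29.

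ARID3A (chr19:925781-975934, plus strand) stood at 121, 125, 115 and 113 CPM at Day 30, at 58.5, 58.8 and 63.9 CPM at Day 60 and at 23.4, 28.7, 21.3 and 20.1 CPM at Day 113. The wells of each day lay close together and no days overlapped. Its log2 fold change was -0.97 ± 0.12 and then -1.37 ± 0.11, 5.07-fold lower overall.

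The 3 IGF2BP genes fell less. IGF2BP1 (chr17:48997412-49055650, plus strand) stood at 233, 212, 201 and 218 CPM at Day 30, at 149, 144 and 115 CPM at Day 60 and at 90.98, 78.6, 93.9 and 80.4 CPM at Day 113. Its log2 fold change was -0.67 ± 0.11 and then -0.66 ± 0.11, with no overlap between days. The 2 intervals took nearly equal steps on the log scale.

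IGF2BP2 (chr3:185643739-185825056, minus strand) stood at 201, 202, 200.3 and 199 CPM at Day 30, at 143, 154 and 148 CPM at Day 60 and at 129, 110.2, 113 and 118 CPM at Day 113. Its Day 30 wells differed by a SD of 1.32 CPM, and no days overlapped. The log2 fold change was -0.44 ± 0.09 and then -0.33 ± 0.09. IGF2BP2 is the member of the family that adult tissue commonly keeps.

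IGF2BP3 (chr7:23310209-23470467, minus strand) stood at 93.8, 89.96, 84.3 and 80.9 CPM at Day 30, at 57.3, 57.2 and 60.2 CPM at Day 60 and at 58.7, 36.8, 45.3 and 51.8 CPM at Day 113. The first Day 113 well lay within the Day 60 range, so these days overlapped. Its log2 fold change was -0.58 ± 0.13 in the first interval and -0.27 ± 0.13 in the second. MALSU1, a mitochondrial ribosome factor, overlaps its exons on the other strand and stood at means of 17.8, 22.2 and 24.3 CPM.

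Summed over the family, the IGF2BP genes stood at 504 ± 17.9 CPM at Day 30 (SD, n = 4), 342 ± 17.1 at Day 60 (n = 3) and 252 ± 21.8 at Day 113 (n = 4). The make-up of the sum shifted. Scaled to transcript length, IGF2BP1 made up 25.8% ± 1.04 of the family at Day 30, 23.3% ± 2.73 at Day 60 and 19.4% ± 1.61 at Day 113. The share of IGF2BP2 was 53.9% ± 1.31, 57.1% ± 1.90 and 59.6% ± 1.82 on the same days. IGF2BP3 kept 20.3% ± 0.857, 19.5% ± 1.16 and 21.0% ± 2.32, values within their spread.

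NAP1L1 (chr12:76036587-76085033, minus strand) had the highest level and the smallest fall. It stood at 1015, 1032, 983 and 999.5 CPM at Day 30, at 827, 744 and 939 CPM at Day 60 and at 709, 669, 585 and 602 CPM at Day 113. No days overlapped, and Day 60 had the widest spread, a SD of 98.1 CPM. The log2 fold change was -0.27 ± 0.10 and then -0.38 ± 0.10, 1.57-fold lower overall.

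The timing of the fall differed among the genes. IGDCC3 had made 80.7% of its whole log2 fall by Day 60, IGF2BP3 68.1%, IGF2BP2 57.1% and IGF2BP1 50.3%. ARID3A had made 41.5%, NAP1L1 41.1%, LIN28B 36.2% and HMGA2 33.7%. No error was computed for these shares, so small differences between them are not read. The first step of NAP1L1 ranged from -0.33 to -0.19 log2 units over the alternative runs named below. The intervals lasted 30 and 53 days, so a fall at an even pace on the log2 scale would have made 36.1% by Day 60. LIN28B lay at that share, with -0.033 log2 units per day in both intervals, and HMGA2 close to it. IGDCC3 fell by 0.14 log2 units per day before Day 60 and by 0.019 after it.

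**Figure D2:**
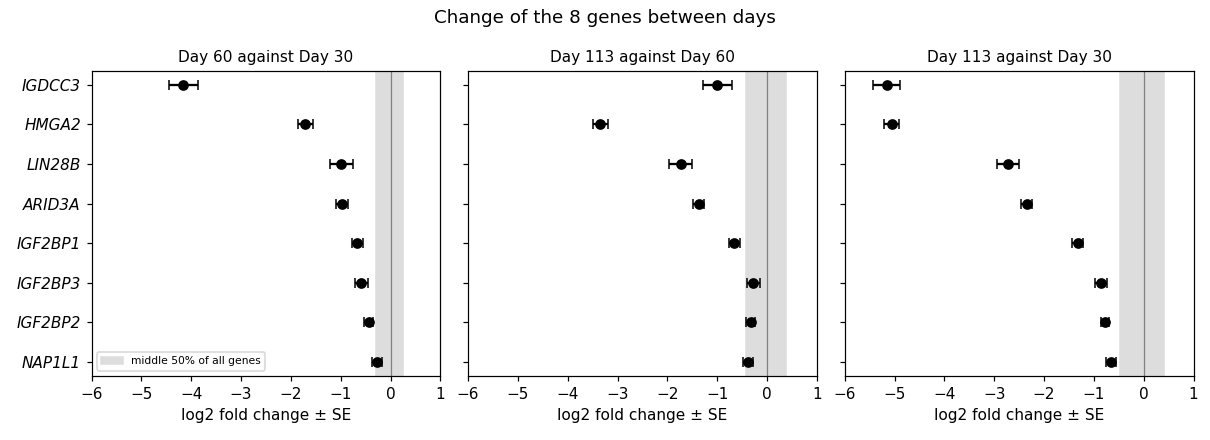
Log2 fold change with its standard error (points and bars; horizontal axis) of the 8 genes (vertical axis) in the 3 comparisons of days, with the middle 50% of all 19990 genes as a grey band. IGDCC3 moved by -4.16 in the first interval and HMGA2 by -3.35 in the second. NAP1L1 lies inside the band in both intervals, and IGF2BP2 and IGF2BP3 lie inside it in the second.

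Against all genes, the median log2 fold change of the 8 was -0.82 for Day 60 against Day 30, -0.83 for Day 113 against Day 60 and -1.84 for Day 113 against Day 30, where the medians of all genes were -0.011, 0.0016 and -0.018. The edgeR test at an adjusted p of 0.05 called 7 of the 8 lower from Day 30 to Day 60, where it called 5.91% of all genes lower and 4.39% higher. NAP1L1 was the gene not called. From Day 60 to Day 113 it called 7 of 8, all but IGF2BP3, against 11.1% of all genes lower and 12.9% higher, and from Day 30 to Day 113 all 8, against 17.2% lower and 17.3% higher. Non-overlapping wells, with the later day lower, were found for 8, 7 and 8 of the genes in the 3 comparisons, and for 14.1%, 14.4% and 18% of all genes. The 8 were chosen by these differences, so nothing is read from these counts.

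Levels can be set beside each other between genes only per length, here CPM per kilobase of the annotated principal transcript. At Day 30 the order was NAP1L1 (74.6), IGF2BP2 (54.4), HMGA2 (35.8), IGF2BP1 (26.1), IGF2BP3 (20.5), ARID3A (19.9), IGDCC3 (8.56) and LIN28B (3.41). The wells of IGF2BP3 and ARID3A overlapped, and no other neighbours in this order did. At Day 113 the order was NAP1L1 (47.5), IGF2BP2 (31.9), IGF2BP3 (11.3), IGF2BP1 (10.4), ARID3A (3.93), HMGA2 (1.07), LIN28B (0.521) and IGDCC3 (0.242), with overlap between IGF2BP3 and IGF2BP1 only. HMGA2 thus moved from the third to the sixth place. The principal transcript of NAP1L1 has an exceptionally long 3′ UTR, and with the length of the shorter NAP1L1-201 its levels would be 227 at Day 30 and 144 at Day 113, still the highest.

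Within a day, wells also differed, and some differences ran with markers of other cells. Day 30 well 4 was the lowest of its day for 6 of the 8 genes (LIN28B, HMGA2, IGF2BP2, IGF2BP3, IGDCC3 and ARID3A), and it was also the lowest for 11 of the 12 endoderm and epithelial markers. IGDCC3 had 67.5% of the Day 30 mean in that well and HMGA2 84.5%, where the epithelial adhesion gene EPCAM had 48.3% and the fetal liver gene AFP 47.7%. IGF2BP3 had 92.7% of its mean there, LIN28B 96.2%, ARID3A 95.1% and IGF2BP2 99.2%, so 4 of the 6 were lower by less than 10%. IGDCC3 and LIN28B each ranked the 4 Day 30 wells in the same order as 5 of the 12 markers, and at Day 113 each matched 0 of the 12. At Day 113, FOXA2 had 0, 0, 0 and 5 counts and HNF4A 0, 0, 8 and 0, so their wells were tied. IGDCC3 had 38, 35, 20 and 34 counts there. Low counts thus limit the orders at Day 113, and nothing is read from the difference between the days. At Day 30, IGF2BP2 and ARID3A shared the order of AFP, TTR, APOA1 and FOXA2, and IGF2BP3 that of ALB and APOB. The Day 30 orders of HMGA2, IGF2BP1 and NAP1L1 matched none of these markers. The Day 30 wells of IGF2BP2 ran only from 99.2% to 100.7% of their mean. Those of LIN28B, with 493 to 579 counts, ran from 96.2% to 102%. Differences this small can arise from counting error alone, so for IGF2BP2 and LIN28B neither the Day 30 order nor the lowest well is read. At Day 113, IGF2BP3 and IGF2BP2 ranked the wells in the same order as 6 of 10 cycling cell markers, and at Day 30 the order of IGF2BP3 matched none of the 10. By day means, all 10 cycling markers were highest at Day 60. The 8 genes were picked for a steady fall, so none could follow that course, and nothing is read from the difference. The well orders were noticed after the values were seen, rest on 4 wells a day, and their part in the falls was not tested.

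**Figure D3:**
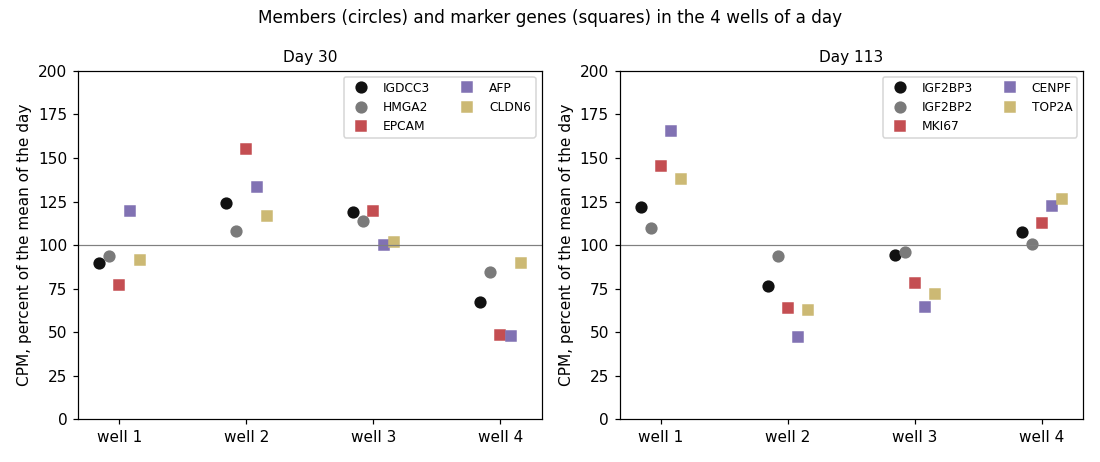
Level in each of the 4 wells of Day 30 (left) and Day 113 (right) as percent of the mean of that day (vertical axis), for 2 of the 8 genes (circles) and 3 marker genes (squares) in each panel, chosen after their values were seen. At Day 30 well 4 is lowest for all 5 genes shown, and at Day 113 well 2 is lowest and well 1 highest for all 5.

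Paralogues, the genes most related by descent, did not all move alike. Of 10 tested, 5 fell and 3 rose between Day 30 and Day 113, with a median log2 fold change of -0.83. Of all genes, 17.2% were called lower and 17.3% higher in that comparison. LIN28A, the relative of LIN28B, had 80, 154, 85 and 103 counts at Day 30, 0, 6 and 0 at Day 60 and 0 in each Day 113 well. With a floor of 3 counts per library, LIN28A was at least 35.9-fold lower at Day 113 than at Day 30. HMGA1 fell with a log2 fold change of -1.28 ± 0.12 (edgeR adjusted p = 1.09e-06) and ARID3B, from a mean of 66.3 to 10.5 CPM, with -2.66 ± 0.18 (adjusted p = 3.18e-08). In the family of IGDCC3, PRTG fell by 2.14 ± 0.14 on the log2 scale (adjusted p = 3.65e-08) and IGDCC4 by 0.78 ± 0.11 (adjusted p = 6.03e-05). NEO1 stood at -0.15 ± 0.11 (adjusted p = 0.31). DCC had means of 1.47, 9.46 and 0.826 CPM on the 3 days.

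Of the relatives of NAP1L1, only NAP1L2, NAP1L3 and NAP1L5 were tested, and their means were higher at Day 113 than at Day 30. NAP1L2, a form known from neurons, rose with a log2 fold change of 1.20 ± 0.16 between Day 30 and Day 113 (edgeR adjusted p = 3.66e-05), with means of 8.06 and 18.5 CPM. NAP1L3 rose by 0.99 ± 0.10 (adjusted p = 1.75e-06), from 36.5 to 72.3 CPM. NAP1L5 rose by 0.54 ± 0.20 (adjusted p = 0.0454), a call that ended in 9 of 20 alternatives, such as without Day 30 well 1 (adjusted p = 0.128).

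Other known or proposed let-7 targets made the longest list, with 34 genes tested. From Day 30 to Day 60, 11 fell and 0 rose, from Day 60 to Day 113, 14 fell and 6 rose, and from Day 30 to Day 113, 20 fell and 4 rose. Their median log2 fold changes were -0.31, -0.29 and -0.50, against medians of all genes near 0. Setting LIN28A at its bound cannot move the median for Day 113 against Day 30, because LIN28A stays below that median. From Day 60 to Day 113, LIN28A was at or near 0 counts on both days, so it has no bound there. The list was written with earlier results of these data known, and it is not independent evidence of a direction. It also shares genes that fell with other lists: LIN28A, ARID3B, PRTG and HMGA1 with the paralogues, TRIM71 and DICER1 with microRNA processing, and IGF1R and IRS2 with the IGF2 axis. The counts of these lists are therefore not separate.

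Among those that fell from Day 30 to Day 113, the transcription factor MYCN went from 34.7 ± 1.13 to 3.79 ± 1.26 CPM (SD, n = 4 each), a log2 fold change of -3.19 ± 0.22 (edgeR adjusted p = 3.60e-08). ONECUT2 fell by 2.22 ± 0.66 (adjusted p = 0.0156) from a low level of 2.27 CPM. MYC, the relative of MYCN, rose by 1.23 ± 0.40 (adjusted p = 0.0266) to 6.93 CPM, a call lost without any of 5 single wells, with adjusted p of up to 0.0832. EZH2, which methylates histone H3, rose by 0.78 ± 0.12 (adjusted p = 0.000161), the matrix glycoprotein THBS1 by 0.78 ± 0.16 (adjusted p = 0.00121) and the chromatin remodeller SMARCAD1 by 0.54 ± 0.10 (adjusted p = 0.000635). CDC25A, a cell cycle phosphatase, fell by Day 60 (-1.01 ± 0.23, adjusted p = 0.00945) and rose after it (0.81 ± 0.23, adjusted p = 0.0167). Without Day 60 well 3 neither call on CDC25A held (adjusted p = 0.0613 and 0.0833).

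**Figure D4:**
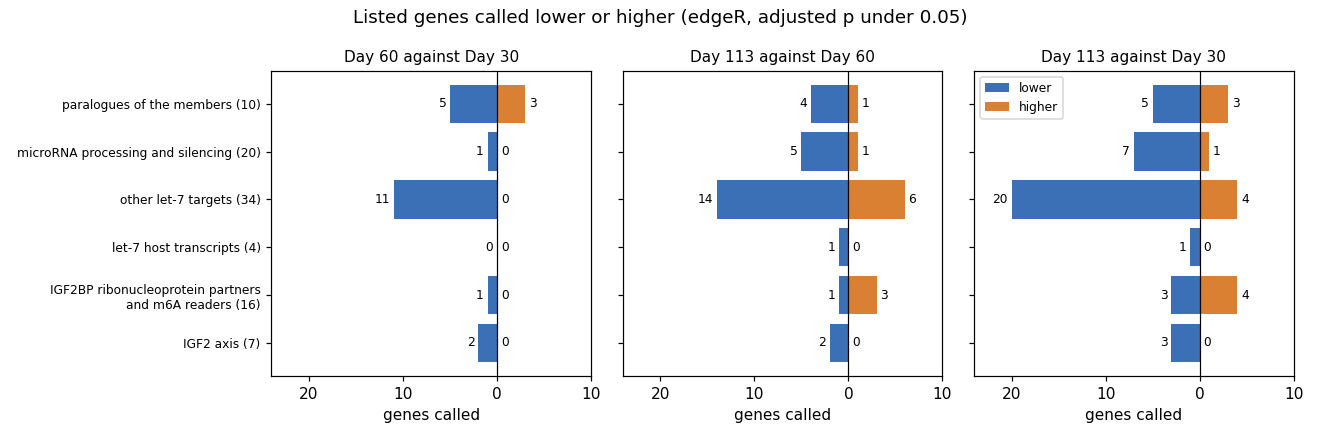
Number of genes called lower (blue, to the left) and higher (orange, to the right) by edgeR at an adjusted p of 0.05 in each list of related genes (vertical axis, number tested in parentheses) for the 3 comparisons of days. Other let-7 targets had 20 genes lower and 4 higher between Day 30 and Day 113, and microRNA processing genes 7 lower and 1 higher of 20. Some genes are on several lists.

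Most genes of the machinery that makes and uses microRNAs were not called. Of 20 genes tested, 1 fell from Day 30 to Day 60, 5 fell and 1 rose from Day 60 to Day 113, and 7 fell and 1 rose from Day 30 to Day 113, with a median log2 fold change of -0.034. The 35% that fell stands beside 17.2% of all genes called lower, and the difference was not tested. TRIM71, an embryonic ubiquitin ligase and itself a let-7 target, fell by 2.21 ± 0.14 on the log2 scale between Day 30 and Day 113 (edgeR adjusted p = 1.71e-08). DICER1, which cuts precursors into mature microRNAs, fell by 0.84 ± 0.15 (adjusted p = 0.000578), and the Argonautes AGO2 and AGO3, which carry the microRNA, fell by 0.65 ± 0.14 (adjusted p = 0.00178) and 0.54 ± 0.14 (adjusted p = 0.00602). DGCR8, the partner of DROSHA in the nucleus, rose by 0.55 ± 0.12 (adjusted p = 0.00232). The other genes that fell were XPO5, TUT4, which adds uridines to let-7 precursors held by LIN28, and KHSRP.

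Transcripts that host let-7 genes gave little signal. Of 4 tested, MIR100HG fell by 0.28 ± 0.08 between Day 30 and Day 113 (edgeR adjusted p = 0.0145), and MIR99AHG and HUWE1 were not called. MIRLET7BHG, the host of let-7b, had 5, 7, 0 and 11 counts at Day 30, 20, 4 and 10 at Day 60 and 49, 18, 24 and 25 at Day 113. Each Day 113 well was above each Day 30 well, but the fitted log2 fold change of 2.22 ± 0.88 missed the threshold (adjusted p = 0.0642). DESeq2 (adjusted p = 0.0209), limma-voom (adjusted p = 0.0303) and a fit on these 2 days only (adjusted p = 0.0422) called it.

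Among 16 partners of the IGF2BP proteins and m6A readers, 3 fell and 4 rose between Day 30 and Day 113, with a median log2 fold change of 0.018. The 18.8% that fell is close to the 17.2% of all genes called lower. PABPC1, the poly(A)-binding protein, fell by 0.81 ± 0.11 (edgeR adjusted p = 3.12e-05), and the m6A reader YTHDF1 fell by 0.38 ± 0.09 (adjusted p = 0.00486). DHX9, an RNA helicase, rose by 1.16 ± 0.09 (adjusted p = 1.91e-07), from 108 to 241 CPM, and HNRNPA2B1 by 0.38 ± 0.10 (adjusted p = 0.00543). STAU1 fell by 0.32 ± 0.10 (adjusted p = 0.0176), and YTHDC2 and MATR3 rose by 0.37 ± 0.13 (adjusted p = 0.0335) and 0.25 ± 0.09 (adjusted p = 0.0451). Those 3 calls were lost without some single wells, with adjusted p of up to 0.0581, 0.103 and 0.115, and those of YTHDC2 and MATR3 also with upper-quartile scaling (adjusted p = 0.0503 and 0.0812).

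IGF2, the growth factor mRNA that gave the IGF2BP proteins their name, had no steady course. It stood at 395, 419, 435 and 333 CPM at Day 30, at 199.7, 280.5 and 262 CPM at Day 60 and at 301, 393, 386 and 246 CPM at Day 113. IGF2 fell from Day 30 to Day 60 (-0.68 ± 0.16, edgeR adjusted p = 0.0132), a call lost without Day 60 well 1 (adjusted p = 0.0841), and did not differ past the threshold between Day 30 and Day 113 (-0.26 ± 0.15, adjusted p = 0.20). Of the 7 genes of the IGF2 axis, 3 fell between Day 30 and Day 113, where 17.2% of all genes were called lower. The 3 were the receptor IGF1R (-1.01 ± 0.11, adjusted p = 5.05e-06) and its adaptors IRS1 (-1.14 ± 0.15, adjusted p = 3.20e-05) and IRS2 (-1.36 ± 0.16, adjusted p = 9.38e-06).

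The genes with courses most like those of LIN28B, HMGA2, IGF2BP1 and IGF2BP3 were ranked by Pearson correlation of log2 CPM over the 11 libraries, among 15546 genes with a mean of at least 1 CPM. The libraries share the steps between days, so these values are a description. LIN28B was most like MGST1 (r = 0.993), a glutathione transferase, and SNHG16 (r = 0.992), a host of small nucleolar RNAs, followed by AHCY, GLCCI1 and PTH1R. HMGA2 was most like HS6ST2 (r = 0.994), a heparan sulfate enzyme, and TRIM71 (r = 0.992), followed by RHOBTB3, RSPO3 and LGALSL. IGF2BP1 was most like FOXP4 (r = 0.987) and the RNA-binding gene MEX3A (r = 0.985), followed by VANGL2, KHNYN and SETBP1. IGF2BP3 was most like CHD2 (r = 0.976), followed by ATF7IP, SKP2, CREB3L2 and FOCAD.

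Genes outside the 8 were also sorted by the number of 8mers in the 3′ UTR. Between Day 30 and Day 113, edgeR called 19.3% of 14313 genes without an 8mer lower and 21.4% higher. Of 517 genes with 1 8mer, 30.4% were called lower and 13.5% higher, with a median log2 fold change of -0.15. Of 16 genes with 2 8mers, 37.5% were called lower and 0 higher. Genes with an 8mer had longer 3′ UTRs, with a median of 2952 bases for 1 8mer against 1026 bases without. Among UTRs of at least 1000 bases, a setting chosen after seeing the data, 21.8% of 7273 genes without an 8mer and 32.0% of 447 genes with 1 were called lower, and 21.9% and 14.3% higher. The classes still differed in length within this setting, with median UTRs of 2227 and 3442 bases. Genes are not independent samples, so these shares are a description and no test was made.

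**Figure D5:**
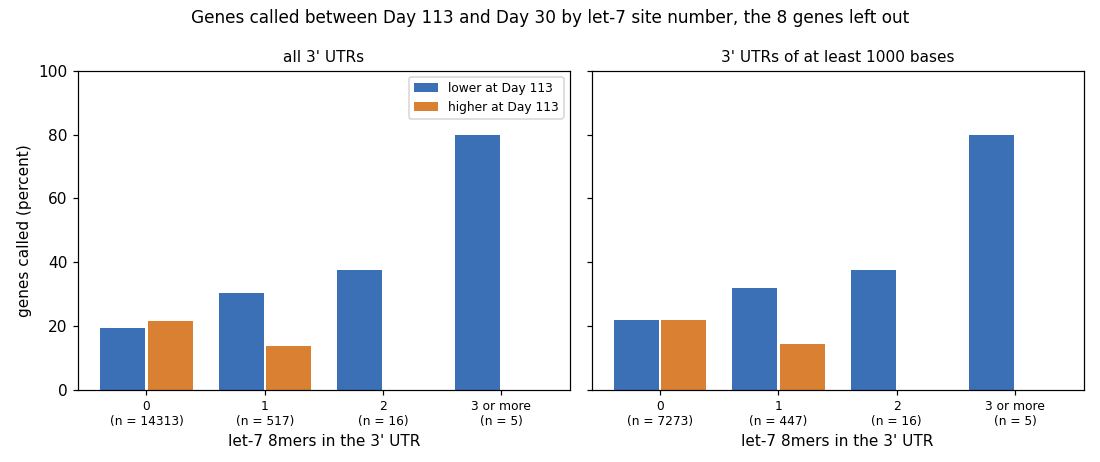
Percent of genes called lower (blue) or higher (orange) at Day 113 than at Day 30 (vertical axis, from 0) by number of let-7 8mers in the 3′ UTR (horizontal axis, with the number of genes), for all 3′ UTRs and for those of at least 1000 bases, without the 8 genes. The share called lower was 19.3% without an 8mer and 30.4% with 1, and the class of 3 or more holds 5 genes.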

How the data were processed

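Poly(A) RNA of 11 wells was measured. The authors deposited a table of raw read counts for 19990 gene symbols, with no normalization. The submitters' processing notes name STAR 2.5.3a, featureCounts 2.0.3 and hg38. The annotation and the strand setting are not given in the sources used here. The authors also deposited TPM values, but the gene lengths they imply did not correlate between libraries (median Spearman rho -0.0022 over 55 library pairs), so TPM entered no comparison.

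Changes in counts were tested in edgeR 4.0.16 (quasi-likelihood, R 4.3.3), with TMM scaling, filterByExpr with a minimum count of 10 (which removed no gene), all 11 libraries in 1 fit with day as the only factor, and Benjamini-Hochberg adjustment over 19990 genes (threshold 0.05). CPM used TMM library sizes. Standard errors are the absolute log2 fold change over the root of F. P-values measure only the spread between wells of 1 differentiation. Libraries had no molecular identifiers, so floors cover counting error only. Let-7 sites were searched in GENCODE release 29, where 15038 table genes matched by symbol. Alternatives were other scalings, filters, DESeq2 1.42.0, limma-voom (limma 3.58.1), a replicate block, a threshold of 0.01 and leaving out each well.

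The 8 genes and the lists (paralogues, microRNA processing, other let-7 targets, host transcripts, IGF2BP partners, IGF2 axis and cell type markers) were chosen with earlier results of these data known. Named were the 8 genes, every tested paralogue and host, the 5 genes most like 4 of the 8, and of the other lists up to 4 called genes per direction and comparison with the largest change and a mean of at least 1 CPM. XPO5, TUT4, KHSRP, TNRC6C and the genes with several let-7 sites are named outside this rule. NAP1L4, NAP1L6 and ARID3C were not analysed here. Some genes with several let-7 sites are not reported here. Of the markers, the 4 pluripotency genes tested summed to 20.5 to 32.4, 11.7 to 18.5 and 5.55 to 12.0 CPM at Day 30, Day 60 and Day 113.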

Additional observations from a re-analysis of the deposited data

How the results depend on the processing

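The fold changes of the 8 genes kept their direction in every alternative run. So did the other named genes recomputed under the alternatives. Apart from MIRLET7BHG, a gene was recomputed only in comparisons where it was called and picked by the naming rule above. NEO1, MIR99AHG, HUWE1, TNRC6C, FIGN, SMC1A, XPO5, TUT4 and KHSRP were left out. So were genes named only as markers, as overlapping genes or for a course like that of a member, and FIGNL2 from Day 60 to Day 113. At an adjusted p of 0.01, the genes changed were 937, 2545 and 4552 for Day 60 against Day 30, Day 113 against Day 60 and Day 113 against Day 30, in place of 2060, 4790 and 6889, and the listed genes changed between Day 30 and Day 60 were 10 in place of 18. Leaving out 1 well at a time gave 1220 to 2618, 3317 to 4735 and 5657 to 6977 genes, and 9 to 26, 24 to 34 and 38 to 46 listed genes, in place of 18, 31 and 43. The counts for Day 60 against Day 30 moved most, to 1323 genes without Day 30 well 2, 1259 without Day 60 well 1 and 1220 without Day 60 well 3, the last with 9 listed genes. The cause was not tested. With the well number as a replicate block, 2474, 4954 and 7143 genes and 21, 34 and 44 listed genes were called. The labels do not say that wells of equal number share anything. The correlations of their deviations were weak but all above 0, at 0.0227 to 0.0761 in 10 pairs. Between wells of different number they ran from -0.0779 to 0.0688. Whether wells of equal number share a source was not tested. Of the values of named genes recomputed, 1298 kept their call, 75 lost it and 3 gained it. The NAP1L1 level per kilobase depends on the transcript assumed. Counts under the floor, as for LIN28A at Day 113, limit what folds can be given.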

Other observations

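Among genes outside the 8 with 3 or more let-7 8mers in the 3′ UTR, TRIM71 (4 8mers), FIGNL2 (3) and FIGN (3) fell between Day 30 and Day 113, and SMC1A (3) was not called. FIGN, a microtubule-severing enzyme, had a log2 fold change of 0.022 ± 0.20 from Day 30 to Day 60 (edgeR adjusted p = 0.971) and fell by 0.63 ± 0.20 after it (adjusted p = 0.0289). FIGNL2 fell in both intervals, by 1.21 ± 0.28 (adjusted p = 0.0104) and 0.81 ± 0.27 (adjusted p = 0.0415). The first of these calls was lost without Day 60 well 1 (adjusted p = 0.0599) or well 3 (adjusted p = 0.0693). SMC1A, a cohesin subunit, stood at 0.10 ± 0.12 between Day 30 and Day 113 (adjusted p = 0.575). TRIM71 and FIGNL2 were also on the list of other let-7 targets, and these genes were singled out by site number after the sites of the 8 genes were seen.

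In the microRNA machinery, TNRC6C, a scaffold of the silencing complex, rose and fell back, with means of 33.1, 43.9 and 33.8 CPM on the 3 days. Its rise was not called (0.41 ± 0.13, edgeR adjusted p = 0.0582) and its fall was (-0.38 ± 0.13, adjusted p = 0.0446).

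Split by interval, genes outside the 8 with 1 8mer were called lower in 10.1% of 517 cases from Day 30 to Day 60 and in 19.7% from Day 60 to Day 113, against 7.44% and 12.0% of the 14313 genes without an 8mer. The shares called higher were 4.06% and 11.4% with 1 8mer and 5.32% and 16.4% without. No test was made of these shares.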
